A study of Homo sapiens with 4 samples.

Results

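The genes that write, remove and read marks on RNA, and those that build, bind and remove the mRNA cap, were examined in the m7G peak lists of HL60 and HL60/MX2 cells. The list held 50 genes of 20162 protein-coding genes of the GENCODE annotation placed on hg19, namely 18 genes of m7G and the cap, 19 genes of m6A and 13 genes of other marks. A peak was counted for a gene when it overlapped the exons of that gene, on its strand, by more bases than those of any other gene. This gave 18 of the 8070 peaks of HL60 and 16 of the 8122 peaks of HL60/MX2. HL60 is an established acute myeloid leukemia cell line, labelled wild type, and HL60/MX2 is its drug-resistant counterpart. From each line, mRNA was selected with oligo(dT) beads, decapped with an enzyme, fragmented and enriched with an m7G antibody, and 1 enriched library per line has a peak list. There was therefore no replicate, no comparison between the lines was tested, and every difference between them is a difference between 2 libraries. Neither read counts nor expression values are part of the lists. Depth is therefore unknown, and the labelled cell type could not be checked against its markers. The lists hold only peaks above the authors' threshold, so a gene without one is not shown to lack m7G.

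N7-methylguanosine (m7G) is part of the cap at the 5' end of every mRNA and also occurs inside tRNA, rRNA and mRNA. RNGTT adds the cap guanosine, RNMT methylates it, the nuclear cap-binding complex reads it, and decapping enzymes take it off before the mRNA is degraded. METTL1 with WDR4 places internal m7G, and BUD23 with TRMT112 places it on the rRNA of the small ribosomal subunit. m6A, the most common internal mark of mRNA, is written by a complex around METTL3 and METTL14, removed by FTO and ALKBH5 and read by the YTH proteins.

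The coding bases of the WDR4 peak, the only one in an m7G-writing enzyme, and of the METTL14 peak found in both lines are given first. Those of NCBP3, CMTR1, DCP1B and NAT10 were added after the values were seen, to show how short some peaks were and that NCBP3 and NAT10 carried peaks on different exons in the lines. All are hg19 sequence on the strand of the gene, 5' to 3', and capitals mark matches to CUGKR (CTG, then G or T, then A or G) and GGAAR (GGAA, then A or G), searched on that strand only.

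WDR4, HL60, chr21:44296824-44296877, minus strand: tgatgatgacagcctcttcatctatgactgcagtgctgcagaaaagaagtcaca
NCBP3, HL60, chr17:3743446-3743499, minus strand: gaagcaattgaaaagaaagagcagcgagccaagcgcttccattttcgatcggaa
NCBP3, HL60/MX2, chr17:3749335-3749517, minus strand: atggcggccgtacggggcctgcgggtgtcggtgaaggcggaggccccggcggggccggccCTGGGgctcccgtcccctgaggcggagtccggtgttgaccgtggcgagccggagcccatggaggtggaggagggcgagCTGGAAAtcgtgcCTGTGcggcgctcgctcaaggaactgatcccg
CMTR1, HL60, chr6:37426388-37426475, plus strand: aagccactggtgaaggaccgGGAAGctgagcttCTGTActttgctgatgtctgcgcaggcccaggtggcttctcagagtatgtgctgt
DCP1B, HL60/MX2, chr12:2061595-2061816, minus strand: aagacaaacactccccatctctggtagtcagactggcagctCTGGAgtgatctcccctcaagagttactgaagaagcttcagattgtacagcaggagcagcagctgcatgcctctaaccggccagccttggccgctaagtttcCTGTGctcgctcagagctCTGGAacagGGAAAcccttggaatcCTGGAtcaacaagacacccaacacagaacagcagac
METTL14, HL60 and HL60/MX2, chr4:119621705-119621797, plus strand: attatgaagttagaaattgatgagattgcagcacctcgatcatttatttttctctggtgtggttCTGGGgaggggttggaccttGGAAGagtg
NAT10, HL60, chr11:34153752-34153768, plus strand: tggcttctcactacaag
NAT10, HL60/MX2, chr11:34149010-34149114, plus strand: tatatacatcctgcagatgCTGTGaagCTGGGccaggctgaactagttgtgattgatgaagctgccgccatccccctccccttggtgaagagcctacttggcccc

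The WDR4, NCBP3 (HL60) and NAT10 (HL60) stretches held neither motif. In the NCBP3 stretch of HL60/MX2, which begins with the start codon, a CUGKR match and the GGAAR match shared bases.

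In HL60, 15 of the 50 genes carried a peak (30.0%, 17.9-44.6%), where 26.4% of all protein-coding genes did. In HL60/MX2, the number was 13 (26.0%, 14.6-40.3%), where 28.5% of all genes did. The ranges in parentheses are 95% intervals by the exact Clopper-Pearson method and describe counting error alone. The 50 genes had a median of 5984 bp of merged exon and 12.5 merged exons, against 4388 bp and 9 in all genes. Genes of like exon length and exon number were therefore set beside them. Expression was not part of this matching. If each gene had carried a peak as often as these genes of like size, 15.3 genes would have had one in HL60 and 16.8 in HL60/MX2. These are 30.5% and 33.6% of the 50 genes, and both lie inside the interval of the observed share.

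Both lists held peaks of 6 genes (12.0%, against 12.0% of all genes), namely NCBP3, CMTR2, DCP1B, METTL14, METTL16 and NAT10. Genes of like size would have given 7.16. A peak in HL60 only was found in 9 genes (18%, against 14.4% of all genes), which were WDR4, RNGTT, NCBP1, CMTR1, YTHDC2, IGF2BP1, IGF2BP2, NSUN2 and TRDMT1. The 7 genes with a peak in HL60/MX2 only (14.0%, against 16.5% of all genes) were NUDT16, VIRMA, ZC3H13, RBM15B, FTO, YTHDC1 and ADARB2. No listed peak lay in the other 28 genes (56.0%). Among all genes, the share without a peak is what remains beside the 12.0%, 14.4% and 16.5% above.

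By role, the groups held 13 to 19 genes, so the intervals of their shares are wide. Whether a group departs from genes of like size was not tested. More m7G and cap genes were peaked in HL60, and more m6A genes in HL60/MX2. These differences are of a few genes between single libraries and were not tested. Among the 18 m7G and cap genes, HL60 peaks lay in 7 (38.9%, 17.3-64.3%) and HL60/MX2 peaks in 4 (22.2%, 6.41-47.6%), where genes of like size would have given 4.96 and 5.35. Among the 19 m6A genes, HL60 peaks lay in 5 (26.3%, 9.15-51.2%) and HL60/MX2 peaks in 7 (36.8%, 16.3-61.6%), where like genes would have given 6.23 and 6.84. The 13 genes of other marks had a peak in 3 (23.1%, 5.04-53.8%) and 2 cases (15.4%, 1.92-45.4%), against 4.07 and 4.61. In every role and both lines, the share of like genes lay inside the interval of the observed share.

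**Figure D1:**
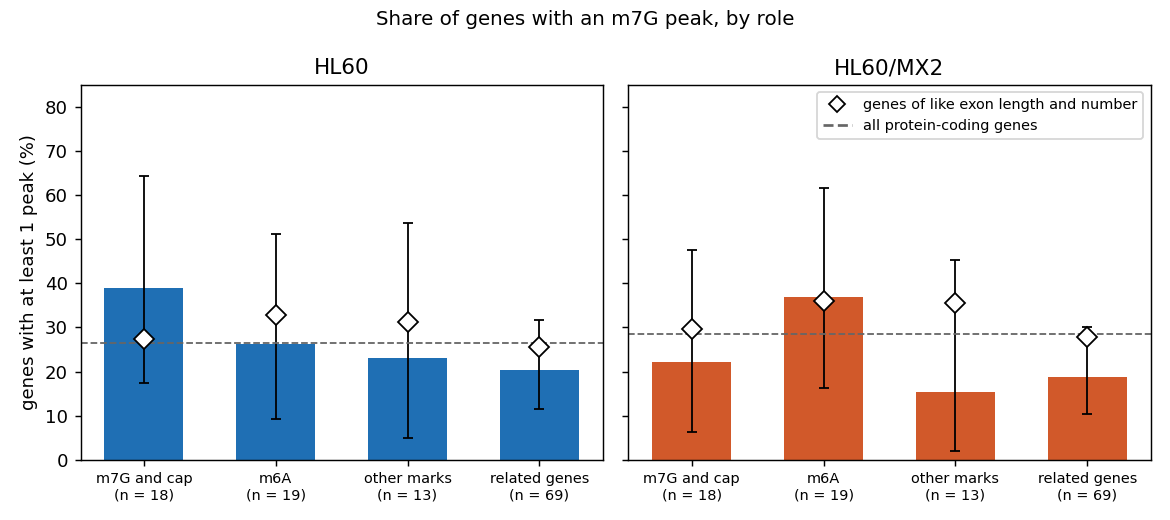
Share of genes with at least 1 peak (y axis, %) in HL60 (left) and HL60/MX2 (right), for the 3 role groups and for 69 related genes. Bars give the observed share with its exact 95% interval, diamonds the share of genes of like exon length and number, and dashed lines the 26.4% and 28.5% of all protein-coding genes. Every diamond sits inside the interval of its bar.

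Among the m7G enzymes themselves, the only listed peak lay in WDR4. METTL1, the catalytic subunit of the METTL1-WDR4 enzyme (chr12:58162254-58165902, 1947 bp of exon), had no peak in either list. Among 201 genes of like exon length and number, the share with a peak was 18.9% in HL60 and 17.9% in HL60/MX2. WDR4, the partner that holds the substrate with METTL1, carried 1 peak of 54 bp in exon 2 of its longest coding transcript in HL60. Its score was 69.55, at percentile 9.41 of the HL60 list. In HL60/MX2, WDR4 had no peak, and 29.0% of 200 like genes had one there. BUD23, the methyltransferase of the small-subunit rRNA, and TRMT112, its partner, had none either. These genes are short, with 1201 and 1100 bp of exon, and among like genes the shares with a peak were 12.0% and 13.4% in HL60 against 11% and 4.98% in HL60/MX2.

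Of the enzymes that form the cap, RNGTT carried a peak and RNMT did not. RNGTT, which adds the guanosine, had 1 HL60 peak of 217 bp in the 3'UTR (chr6:89321299-89321515), with a score of 99.37. Of its like genes, 29.9% in HL60 and 37.3% in HL60/MX2 carried a peak. RNMT, the cap methyltransferase, has 6980 bp of exon, and 33.7% and 31.7% of like genes carried a peak. The HL60 list held 2 peaks in CMTR1, which methylates the ribose of the nucleotide next to the cap. These covered exon 1 (chr6:37400997-37401153, score 74.82) and lay in exon 9 (score 80.26), and HL60/MX2 had none. Like genes of CMTR1 were peaked in 34.7% of cases in HL60 and 34.2% in HL60/MX2. CMTR2, which acts on the next nucleotide, had a 3'UTR peak in both lines, described below. PCIF1, which writes m6Am beside the cap, had no listed peak.

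The cap-binding proteins differed in their peaks. NCBP1, the large subunit of the nuclear cap-binding complex, had 1 HL60 peak of 251 bp in its 3'UTR (chr9:100434144-100434394, score 97.14). Its like genes had a peak in 37.7% of cases in HL60 and 41.7% in HL60/MX2. On the opposite strand of NCBP1, the HL60/MX2 list held a peak of TSTD2, the only case in either list of a peak antisense to exons of these genes. NCBP2, the subunit that binds the cap, had no peak. NCBP3, an alternative partner of NCBP1, had a peak in both lines at different places. In HL60 it lay in exon 3 with a score of 158.03, at percentile 40.4 of the list. In HL60/MX2 it lay on exon 1 (chr17:3749335-3749545), with a score of 1367.27 at percentile 97.1, and the peaks were 66 nt apart on the mRNA. This gap is shorter than the fragment length that the authors describe, and whether the peaks mark separate sites was not tested. QKI, an RNA-binding protein described as a reader of internal m7G, has 17364 bp of exon and carried no peak, where 37.0% and 38.5% of like genes did.

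Among the decapping genes, DCP1B and NUDT16 carried peaks, while DCP1A, DCP2 and DCPS had none. DCP1B, a cofactor of the decapping enzyme DCP2, had an HL60 peak that covered the whole of an exon absent from its longest coding transcript (chr12:2059202-2059543, score 71.87). The HL60/MX2 peak of DCP1B lay in exon 7, at 75.5% of the coding region, with a score of 100.44. NUDT16, a Nudix hydrolase with decapping activity, had 1 HL60/MX2 peak (chr3:131103603-131103809, score 118.08). It lies outside the longest coding transcript and in the 3'UTR of the Ensembl canonical one. DCP2 has 11371 bp of exon, and like genes were peaked in 36.5% of cases in HL60 and 49.5% in HL60/MX2.

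In the m6A writer complex, the peaks of HL60 lay in METTL14 and those of HL60/MX2 in 4 subunits. Among like genes, the shares with a peak in HL60 and HL60/MX2 were 33.7% and 31.7% for METTL14. They were 42.9% and 45.5% for both VIRMA and ZC3H13, and 22.5% and 23.0% for RBM15B. For METTL3, WTAP, RBM15 and CBLL1 they ran from 16.4% to 33.5%. The difference between the lines was not tested. METTL3, the catalytic subunit, had no peak in either list. METTL14, its RNA-binding partner, carried 3 HL60 peaks, in exon 6 (chr4:119615603-119615681), exon 8 and exon 10 (chr4:119626878-119626976). Their scores were 95.89, 154.47 and 256.5, or percentiles 20.6, 39.1 and 63.1. In HL60/MX2 METTL14 had the exon 8 peak alone, with a score of 200.88 at percentile 39.7 of that list. On the mRNA, the exon 8 peak lay 142 nt from the exon 6 peak and 229 nt from the exon 10 peak. The gap of 142 nt is shorter than the fragment length that the authors describe. Whether the METTL14 peaks mark separate sites was not tested. VIRMA, a large scaffold subunit of the complex, carried 4 peaks in HL60/MX2 and none in HL60. They lay in exons 2, 6, 7 and 15 of the coding region, with scores of 710.87, 199.88, 655.58 and 247.59. The exon 6 and exon 7 peaks adjoin on the mRNA. ZC3H13, which anchors the complex in the nucleus, had 1 HL60/MX2 peak of 556 bp over the whole of exon 12 (chr13:46549418-46549973). Its score of 3100 is the highest of the list, which 53 peaks share. RBM15B, an RNA-binding subunit, had a peak in its 3'UTR in HL60/MX2 (chr3:51434896-51435237, score 105.89). WTAP, RBM15 and CBLL1 had no listed peak.

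METTL16, a separate m6A methyltransferase that acts on a spliceosomal RNA, had a peak in both lines at different places. The HL60 peak covered the whole of exon 4 (chr17:2376818-2376958, score 368.5, percentile 78.9). The HL60/MX2 peak lay on exon 1 (chr17:2415053-2415200, score 401.39, percentile 67.0), 328 nt upstream on the mRNA.

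Of the m6A erasers, FTO had a peak and ALKBH5 did not. The FTO peak of HL60/MX2 (chr16:53844052-53844107) had a score of 51.81, at percentile 0.825 of the list. FTO has 21379 bp in 33 merged exons, and 66.7% and 72.6% of like genes had a peak. Among the readers, YTHDC2, an RNA helicase, had an HL60 peak in exon 28 (chr5:112927693-112927770) with a score of 62.33. YTHDC1, the nuclear reader, had an HL60/MX2 peak over its stop codon (chr4:69179704-69180041) with a score of 81.41. The cytoplasmic readers YTHDF1, YTHDF2 and YTHDF3 had no peak in either list. IGF2BP1 and IGF2BP2, RNA-binding proteins described as m6A readers, carried 1 HL60 peak each and IGF2BP3 none. The IGF2BP1 peak lay in exon 11 (chr17:47121377-47121448, score 151.52), and the IGF2BP2 peak in an exon of another transcript (chr3:185538831-185538919, score 328.39).

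Among the enzymes of other marks, peaks lay in NSUN2, TRDMT1, ADARB2 and NAT10. NSUN2, an m5C methyltransferase of tRNA and mRNA, had an HL60 peak over the whole of exon 6 (chr5:6622129-6622213, score 154.74). TRDMT1, an m5C methyltransferase of tRNA, had an HL60 peak in the 3'UTR (chr10:17190234-17190460, score 149.68). ADARB2, a catalytically inactive relative of the adenosine deaminase ADAR, had an HL60/MX2 peak in the 3'UTR (chr10:1227491-1227717, score 405.61). NAT10, the ac4C acetyltransferase, had a peak in both lines, in exon 15 in HL60 (score 90.66) and in exon 12 in HL60/MX2 (score 142.47), with 388 nt between them on the mRNA. NSUN5 and NSUN6, ADAR and ADARB1, the pseudouridine synthases DKC1, PUS1 and PUS7 and the tRNA m1A methyltransferase subunits TRMT6 and TRMT61A had none.

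**Figure D2:**
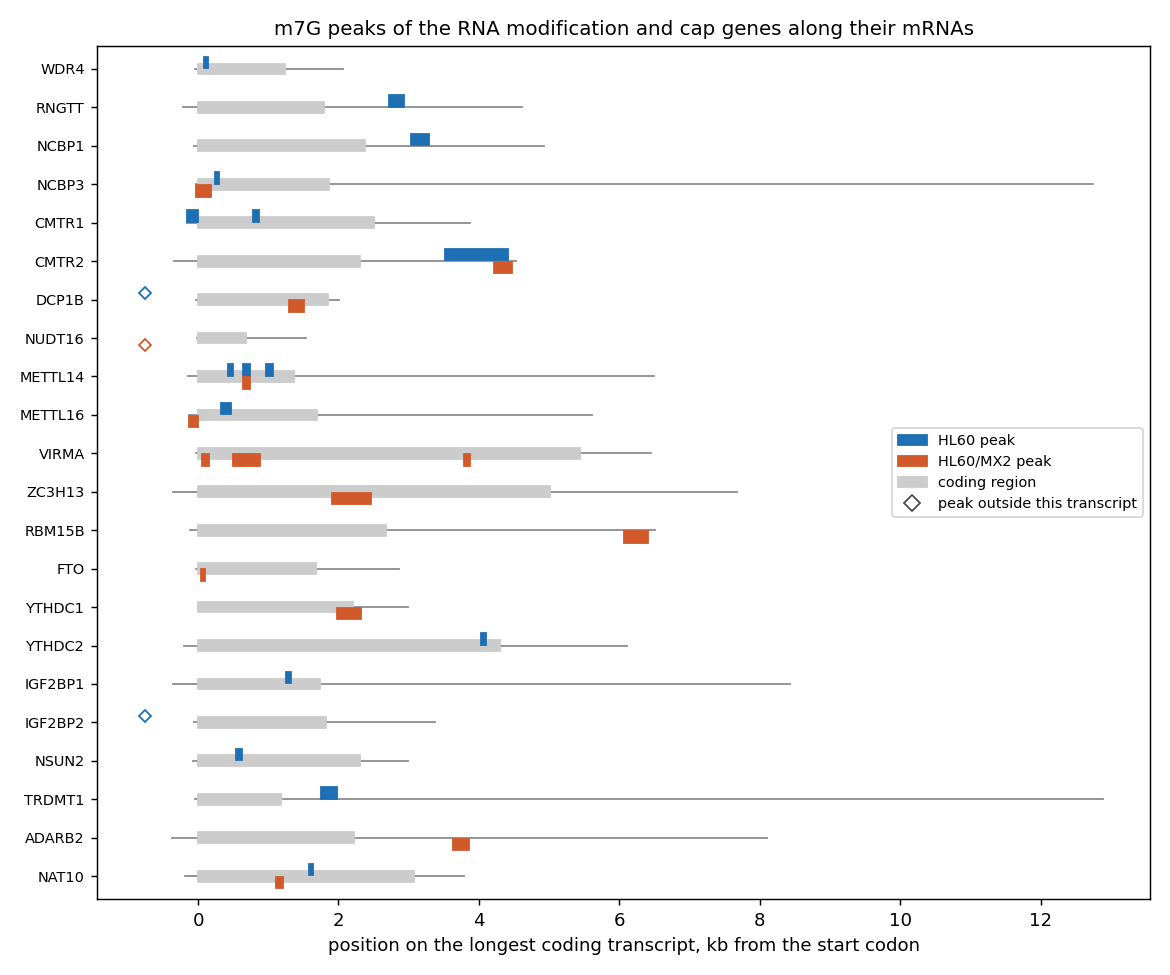
Peaks of the 22 genes with a listed peak, drawn on the longest coding transcript of each gene (x axis, kb from the start codon; grey boxes, coding region). HL60 peaks are above and HL60/MX2 peaks below the line, peaks under 50 nt are drawn at 50 nt, and diamonds mark 3 peaks outside the transcript. The peaks of both lines meet in CMTR2 and METTL14.

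Of the 6 genes peaked in each list, 2 had peaks that overlapped between the lines. In METTL14 the exon 8 peaks had the same start and end, which are those of the exon. In CMTR2 the HL60 peak of 892 bp (chr16:71315411-71316302, score 526.97) and the HL60/MX2 peak of 255 bp (chr16:71315359-71315613, score 554.88) shared 203 bp, or 79.6% of the HL60/MX2 peak. These 2 peaks are 11.1% of the HL60 peaks in these genes (1.38-34.7%), where 6.16% of all assigned HL60 peaks overlapped a peak of the other list. Both shares include peaks of genes peaked in HL60 only. The share with overlapping peaks among all genes peaked in both lists is not given here. Whether 2 of 6 genes is usual therefore cannot be said. In NCBP3, METTL16 and NAT10, the peaks of the lines were between 66 and 388 nt apart on the mRNA, and in DCP1B they were 2051 bp apart on the genome.

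On the mRNA, most peaks of these genes lay in the coding region, as in the lists as a whole. Start and stop codons with 100 nt on each side were classes of their own. In HL60, 11 of 16 placed peaks lay in the coding region (68.8%, 41.3-89.0%, against 64.1% of all placed peaks), 1 at the start codon and 4 in the 3'UTR. In HL60/MX2, 8 of 15 lay in the coding region (53.3%, 26.6-78.7%, against 59.8%), while the start codon and 3'UTR classes held 3 peaks each and the stop codon class 1. The start codon class held CMTR1 in HL60 and NCBP3, METTL16 and FTO in HL60/MX2, and the CMTR1 and METTL16 peaks held no coding base. With 50 nt in place of 100 nt on each side, 1 peak was left at the 5' end in HL60/MX2. No peak of either line lay in the 5'UTR class, which allows shares of up to 20.6% and 21.8%, and the whole lists had 3.33% and 5.69%.

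**Figure D3:**
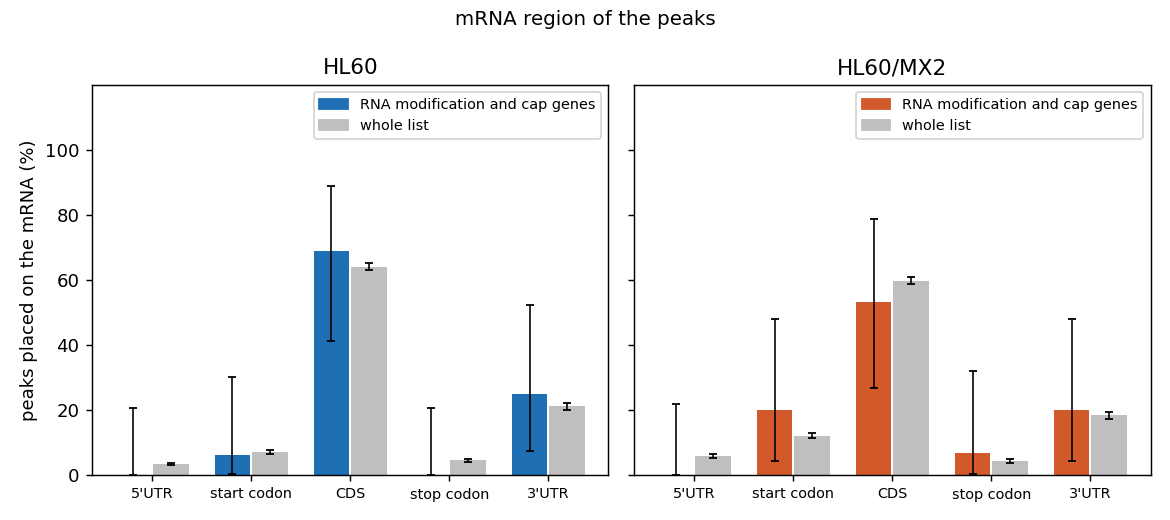
mRNA region of the peaks (x axis) as a share of the peaks placed on the longest coding transcript (y axis, %), in HL60 (left) and HL60/MX2 (right). Coloured bars are the RNA modification and cap genes (16 and 15 peaks), grey bars the whole lists, and lines exact 95% intervals. The grey bars lie inside the intervals of the coloured bars in every region.

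Fewer of these peaks than of the whole list reached the median score in HL60. No source used here gives the scale of the deposited score, and scores were compared only within a list. In HL60, 4 of 18 peaks (22.2%, 6.41-47.6%) were at or above the list's median score of 197, those in CMTR2, METTL16, IGF2BP2 and exon 10 of METTL14. The lowest quartile of the list held 9 of the 18. The median percentile was 29.9, and the scores ran from 62.33 in YTHDC2 to 526.97 in CMTR2. In HL60/MX2, 7 of 16 peaks (43.8%, 19.8-70.1%) were at or above the median of 260, with a median percentile of 44. HL60 peaks of like length would have given 9.13 at or above the median and HL60/MX2 peaks of like length 8.10. Of the m7G and cap genes, only CMTR2 was above the median in HL60, and NCBP3 and CMTR2 were in HL60/MX2. Of the peaks in the 69 related genes described below, 4 of 16 in HL60 (25%, 7.27-52.4%) and 4 of 17 in HL60/MX2 (23.5%, 6.81-49.9%) were at or above the median. No test was made of these shares, since the peaks of a line come from 1 library. The intervals for shares of peaks, here and elsewhere, treat each peak as independent. Yet VIRMA gave 4 of the 16 HL60/MX2 peaks and METTL14 gave 3 of the 18 HL60 peaks.

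**Figure D4:**
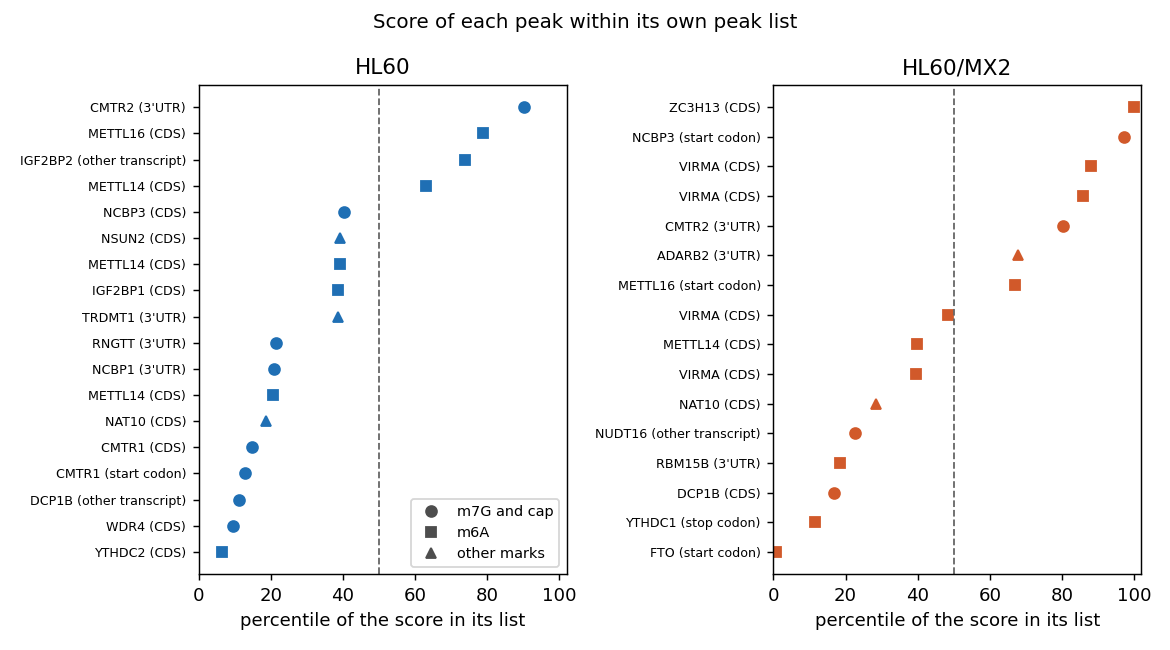
Percentile of each peak's score in its own list (x axis) for HL60 (left, 18 peaks) and HL60/MX2 (right, 16 peaks), with the mRNA region after the gene name. Symbols give the role, and the dashed line is the median of the list. In HL60, 14 of the 18 peaks lie to the left of it.

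In length, the HL60 peaks of these genes had a median of 91.0 bp (17 to 892 bp, against 128 bp for all assigned peaks) and those of HL60/MX2 of 209 bp (56 to 556 bp, against 132 bp). A start or end at an exon boundary was seen in 14 of 18 HL60 peaks and 11 of 16 HL60/MX2 peaks (77.8% and 68.8%, against 70.6% and 71.5% in the lists). A whole exon was covered by 5 peaks in each line (27.8% and 31.2%, against 29.7% and 29.8% in the lists). The median GC content was 44.6% in HL60 and 48.7% in HL60/MX2, against 45.2% and 48.1% in the lists. It ranged from 31.6% in CMTR2 to 73.2% in exon 1 of CMTR1 in HL60, and from 34.5% in CMTR2 to 73.5% in exon 1 of NCBP3 in HL60/MX2.

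CUGKR occurred in 9 of 18 HL60 peaks and in 11 of 16 HL60/MX2 peaks, where peaks of like length in the lists would have given 9.44 and 10.8. GGAAR occurred in 8 and 11 peaks, against 7.42 and 8.35. The CMTR2 peak of HL60 held 12 GGAAR matches, the most of any peak of these genes, and the exon 7 peak of VIRMA held 6. The paper reports both motifs from a DREME search of the methylation peaks of these cells, so the matches are not independent of the lists. A match describes the letters of the reference and does not mark a modified base.

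A further 69 genes of the same pathways, among them decay enzymes, cap-binding translation factors, tRNA and rRNA methyltransferases and pseudouridine synthases, were counted beside the 50. HL60 peaks lay in 14 of them (20.3%, 11.6-31.7%, against 26.4% of all genes). HL60/MX2 peaks lay in 13 (18.8%, 10.4-30.1%, against 28.5% of all genes). Genes of like size would have given 17.7 and 19.3. Both lists held peaks of 5 of these 69 genes (ADAT1, METTL8, NSUN7, XRN2 and ZCCHC4), where like genes would have given 7.49. That is 7.25% (2.39-16.1%), against 12.0% of all genes. RAMAC, the activating partner of RNMT, had an HL60/MX2 peak in its 5'UTR with a score of 208.84. GEMIN5, a cap-binding protein of the SMN complex, had an HL60 peak listed with a length of 1 bp and a score of 310.11. METTL8, an m3C methyltransferase of tRNA, had 2 HL60 peaks with scores of 502.17 and 98.61 and an HL60/MX2 peak with a score of 110.88.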

How the data were processed

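The 2 peak lists of the m7G-enriched libraries were used; the input libraries were not analysed here. The authors trimmed reads with Cutadapt 1.9.3 and aligned them to hg19 with HISAT2 2.0.4. They called peaks with MACS (version and settings not given in the sources used here). They name diffReps for differential sites and state that peaks of both programs over exons of protein-coding genes were chosen. Here 7739 HL60 and 7803 HL60/MX2 peaks overlapped a same-strand exon. Region, length, exon-edge and GC values given for the lists refer to these, with regions for the 6582 and 6622 placed peaks. The deposited score of each peak was used as given. Starts, counted from 0 in the lists, were raised by 1. Genes were those of GENCODE release 44 on GRCh37, without the mitochondrial genome; chromosome 1 has 249250621 bp there. All transcripts gave the merged exons, and the longest complete coding transcript gave the regions. Genes of like size shared a cell of a grid made by cutting genes into 20 quantiles of merged exon length and each of these into 5 of exon number. Peaks of like length shared 1 of 10 length quantiles. No paired or other test between lines was possible. All 50 genes were to be named, with the coding bases of m7G-enzyme peaks and of peaks shared by the lines. The genes, roles and related genes were chosen with earlier results of these data known. Gene assignment, region placement and an expected count from exon length alone were tested on simulated peaks. The other steps were not simulated. All were run under Python 3.11.15 (scipy 1.17.1, numpy 2.4.6, and matplotlib 3.10.9 for figures).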

Additional observations from a re-analysis of the deposited data

How the results depend on the processing

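Of 54 recomputed values, 48 were within 1.5 times the reported one. Keeping only peaks at or above the median score of their list left 4 genes in HL60 (CMTR2, IGF2BP2, METTL14 and METTL16), 6 in HL60/MX2 (ADARB2, CMTR2, METTL16, NCBP3, VIRMA and ZC3H13) and 2 in both, and fewer peaks enter by construction. Requiring an overlap of at least 50% of both peaks left 1 shared peak, that of METTL14. The 5' end held 2 HL60 peaks with any coding transcript and 1 HL60/MX2 peak with 50 nt around the codons. The counts of genes with a peak stayed between 13 and 15 in HL60 and between 12 and 13 in HL60/MX2 under the other assignments, and the counts expected from like or all genes were 13.2 to 15.6 and 14.3 to 17.6. Placing peaks on the Ensembl canonical transcript, chosen after seeing the data, moved no count by over 1.5 times. No paired analysis was possible because each line has 1 enriched library. Without counts or replicates, neither depth nor spread between libraries can be given, and 18 and 16 peaks limit every share.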

Other observations

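Of the 50 genes, those with a peak mostly had 1, namely 13 of 15 in HL60 (86.7%, against 70.6% of all genes with a peak) and 12 of 13 in HL60/MX2 (92.3%, against 74.7%). The mean was 1.20 and 1.23 peaks, against 1.45 and 1.36. The genes VIRMA, METTL14 and XRN1 were singled out after their values were seen. The 4 HL60/MX2 peaks of VIRMA were matched by 0 of 198 genes of like exon length and number, and 109 genes of the whole list (1.89% of those with a peak) had at least as many. Of these 4 peaks, those in exons 6 and 7 adjoin on the spliced mRNA. Peaks were counted as listed on the genome in every gene. METTL14, with 3 HL60 peaks, was matched by 3 of 199 like genes (1.51%), and 498 genes of the list (9.36% of those with a peak) had at least 3. Like genes were counted with or without a peak, so the 2 percentages have different bases and cannot be compared. XRN1, the cytoplasmic exonuclease that degrades decapped mRNA, carried 4 HL60/MX2 peaks and no HL60 peak, with scores between 74.46 and 240.24. Of 200 like genes, 9 (4.50%) had at least as many, as had 109 genes of the whole list (1.89% of those with a peak). No test was made of these counts.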
